A study of Mus musculus with 2 samples.

Results

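Metallothioneins, metal transporters, metal-reducing and metal-oxidizing enzymes and the plasma scavengers of haemoglobin and heme were examined in the liver after acute kidney injury (AKI). The 10 genes are Mt1, Mt2, Mtf1, Slc39a14, Slc30a1, Slc30a10, Steap4, Cp, Hp and Hpx, chosen by name from 18193 genes that the array's annotation names by 1 symbol. All 28 probe sets carrying these symbols were taken. The working name of the set speaks of metal importers, but Slc30a1 and Slc30a10 encode exporters and are described as such. The study asked how liver gene expression differs once the kidneys have been injured. Female wild-type C57BL/6 mice, 8 weeks old, were either sham-operated or had the blood supply of both kidneys stopped for 30 min without cooling and then restored, and livers were collected 24 h later. Renal ischemia and reperfusion of this kind causes AKI. Liver from 3 mice was pooled for each group, and each pool was hybridised to a single Affymetrix mouse array. The groups therefore have no replicate and cannot be tested against each other, and "higher" and "lower" describe these 2 pools only.

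Metallothioneins are small cysteine-rich proteins that bind zinc and copper. In liver their genes are known to be induced by zinc, glucocorticoids and inflammatory cytokines. The transcription factor MTF1 senses free zinc and acts through short metal response elements. Slc39a14 brings zinc, iron and manganese into hepatocytes and is known for its response to interleukin-6, and Slc30a1 and Slc30a10 carry zinc and manganese out of the cell. Haptoglobin (Hp) binds free haemoglobin and hemopexin (Hpx) binds free heme in plasma. Ceruloplasmin (Cp) is the copper-carrying ferroxidase of plasma. The last 3 are made by hepatocytes and are classed as acute phase proteins.

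The data split these genes into 2 sets. Mt1, Mt2, Slc39a14 and Steap4 had signals 9.55 to 19.6 times as high in the AKI pool as in the sham pool. The main probe sets of the other 6 genes differed by less than 2-fold. Differences below are log2 values, AKI minus sham, of signal + 71.8, where 71.8 is the 25th percentile of all signals, and a gene's main probe set is the one with the highest mean level. All 10 genes passed the level filter, the array's median signal, on both arrays. Of the 10 genes, 4 were higher by 2-fold or more and 0 were lower by as much, against 10.4% and 12.4% of 13128 genes past the filter. Of the 25 member probe sets past the same level, 11 were higher and 1 was lower by 2-fold or more, against 12.1% and 12.3% of all probe sets. The lower one, of Slc30a1, passed only through the sham array, and 1 of the 11, of Mtf1, only through the AKI array, so these had to differ. Mt1, Mt2, Slc39a14 and Steap4 were also each at least 8-fold higher, which 0.548% of all genes were. The median difference was 0.68 over the 10 genes and -0.02 over all genes.

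**Figure D1:**
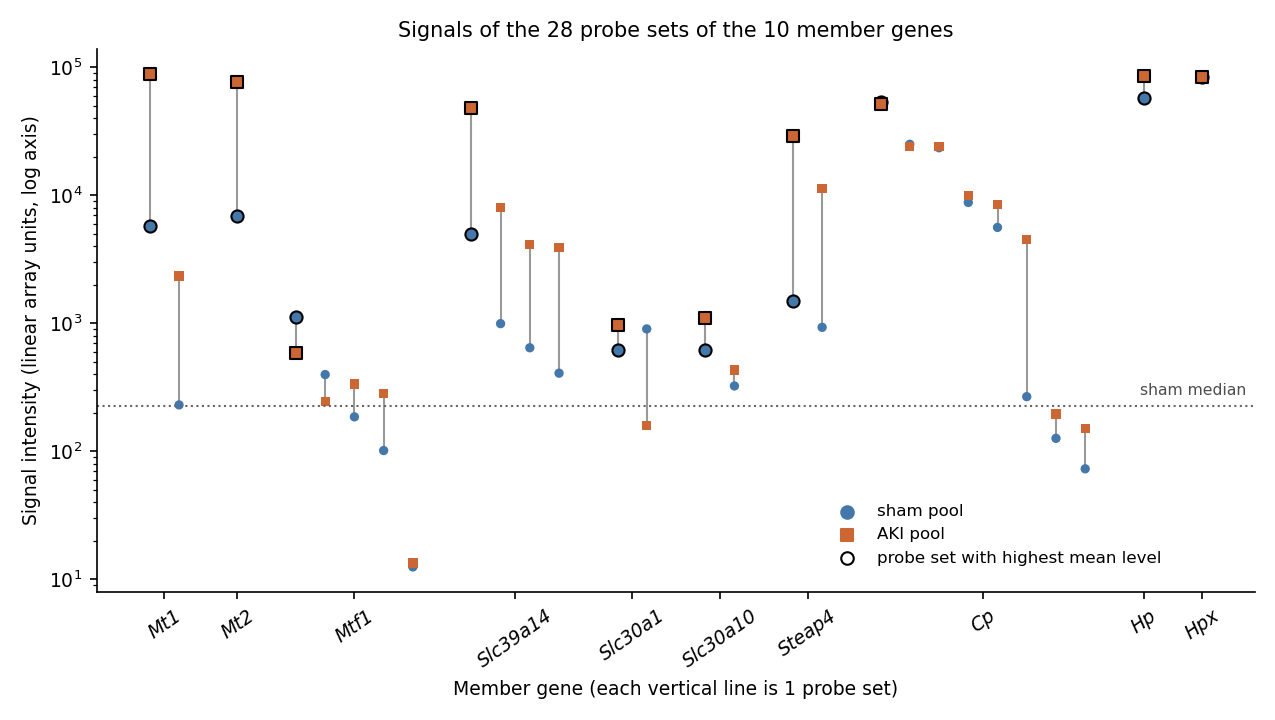
Signal intensity (log axis) of each of the 28 probe sets in the sham pool (circles) and the AKI pool (squares), grouped by gene. A vertical line joins the values of a probe set, black outlines mark the main probe set of a gene, and the dotted line is the median of the sham array. The lines are long for Mt1, Mt2, Slc39a14, Steap4 and 1 probe set of Cp, and short for Hp, Hpx and most probe sets of Cp.

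The hepatocyte markers Alb, Ttr, Apoa1, Apob, Tat, Cps1 and Ass1 were measured on both arrays. Their median difference was -0.36, and none of the 7 reached 2-fold on this scale. The weakest, Ass1, was at 371.4 (sham) and 185.4 (AKI), a difference of -0.79. Ass1 passed the filter only through the sham array, so it had to be lower. Of 8 Kupffer cell and macrophage markers, 6 were below 0, with 2 at least 2-fold lower and 1 at least 2-fold higher. All genes gave 12.4% lower and 10.4% higher. The 2 were Clec4f, at 2282.5 and 839.2 (-1.37), and Cd5l, at 2994 and 1229.9 (-1.24). The summed signal of the 8 was 12852 (sham) and 8190 (AKI). Above 0 were Marco, at 187.4 and 640.3 (1.46), and Cd68, at 358.4 and 587.9 (0.62). Marco passed the filter only through the AKI array and Timd4 (-0.76) only through the sham array. Of 9 neutrophil markers 7 were found and 5 passed the filter. The summed signal of the 7 found was 2052 and 6662. Of the 5 past the filter, 3 were 2-fold or more higher, against 10.4% of all genes. These were S100a8 at 161.4 and 2023.4, S100a9 at 191.2 and 1666.6 and Ngp at 889.1 and 2012.4. S100a8, S100a9 and Elane passed only through the AKI array, so these had to be higher there. Elane was at 192.3 and 376.5 and Mpo at 438.1 and 426.1, and Cxcr2 and Camp lay below the filter. No marker found was at 0 on either array. In bulk liver, a change in the number of cells of a type cannot be told apart from a change in RNA per cell.

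The metallothionein genes Mt1 and Mt2 were much higher in the AKI pool. The main probe set of Mt1 gave 5715 (sham) and 88779 (AKI), 15.5 times as high, a difference of 3.94. It carries the suffix _s_at, so it may match more than 1 transcript. The other probe set of Mt1, without such a suffix, went from 230.4 to 2348, a difference of 3.00. Mt2 has 1 probe set, with signals of 6865 and 76621, a difference of 3.47. Only 28 of 13128 genes had a difference at least as large as Mt1, and 43 as large as Mt2. The gap between the main probe sets of Mt1 and Mt2 was 0.47, smaller than the 0.66 SD between probe sets of a gene in the highest of 4 level classes, so their order is not resolved. The other metallothionein genes, Mt3 and Mt4, were below the level filter in both pools, with signals of 80.4 and 164.5 and of 27.8 and 23.9.

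Mt1 and Mt2 are neighbours on chromosome 8, with 0 annotated genes between them. Their promoters are shown because this pair was higher together and because MTF1 is known to act on it. The RefSeq sequences, build GRCm38.p6, plus strand, hold the 250 bases before the listed start site (chr8:94172368-94172617 for Mt2 and chr8:94178839-94179088 for Mt1) and, as separate runs, the first 30 bases after it (chr8:94172618-94172647 and chr8:94179089-94179118). Capitals mark matches to the metal response element core, searched as TGCACNC or TGCGCNC on either strand, with overlapping matches counted once.
Mt2, before the start: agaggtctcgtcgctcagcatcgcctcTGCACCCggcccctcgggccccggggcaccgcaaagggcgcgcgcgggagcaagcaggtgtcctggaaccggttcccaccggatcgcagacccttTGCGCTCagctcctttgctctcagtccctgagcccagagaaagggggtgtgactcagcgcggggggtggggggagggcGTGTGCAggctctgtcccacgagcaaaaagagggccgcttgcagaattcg
Mt2, after the start: ggtcGTGCGCAggcccaggggcgtgtgctg
Mt1, before the start: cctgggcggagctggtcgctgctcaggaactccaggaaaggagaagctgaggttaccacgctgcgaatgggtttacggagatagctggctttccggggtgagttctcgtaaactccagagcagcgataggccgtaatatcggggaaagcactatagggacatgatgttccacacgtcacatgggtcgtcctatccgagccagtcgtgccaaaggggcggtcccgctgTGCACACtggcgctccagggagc
Mt1, after the start: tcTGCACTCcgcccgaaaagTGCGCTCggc
In the 300-base window of the table, 250 bases before and 50 after the start, Mt2 held 4 matches, whose first bases are at -223, -128, -50 and 5. Mt1 held 3, at -23, 3 and 21. RefSeq's gene table of the same assembly begins Mt1 upstream of the start used here, so the positions and the runs before and after the start hold for the promoter table's start only. At least 4 matches were present in 0.295% of 32851 promoter windows of the same length, at least 3 in 1.31% and at least 1 in 25.7%. A match describes letters, not a bound site.

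Mtf1, the gene of the zinc sensor itself, gave no common direction. Its main probe set was at 1119 (sham) and 581.5 (AKI), a difference of -0.87, and a second was at 397.7 and 245.5 (-0.57). The other 2 past the filter were higher, at 185.9 and 336.5 (0.66) and at 101.4 and 284.4 (1.04), and these passed only through the AKI array. The fifth was near the bottom of both arrays, at 12.5 and 13.4. The spread of 1.91 between the 4 probe sets past the filter was reached by 101 of 464 genes that have 4 such probe sets. The promoter window of Mtf1 held 0 matches to the metal response element core.

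**Figure D2:**
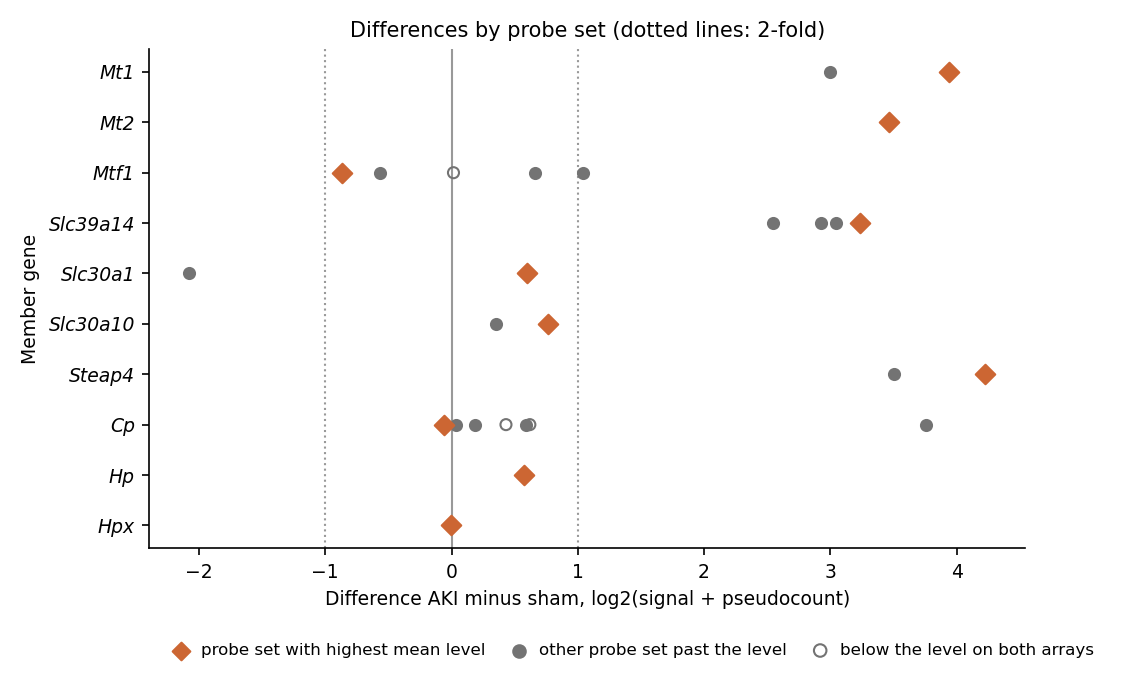
Difference AKI minus sham on the log2(signal + pseudocount) scale for each probe set of each gene. Orange diamonds are main probe sets, grey points other probe sets past the level filter, open points probe sets below it on both arrays, and dotted lines mark 2-fold. The probe sets of Slc39a14 lie together between 2.55 and 3.24, whereas those of Mtf1, Slc30a1 and Cp are spread out.

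The importer gene Slc39a14 was higher at all 4 of its probe sets. They read 5013 (sham) and 47886 (AKI), 994 and 8029, 643.9 and 4118, and 407.8 and 3889. The differences were 3.24, 2.93, 2.55 and 3.05, with an SD of 0.29. Of 724 genes having 4 or more probe sets past the filter, 2 had all of them at least 4-fold higher, Slc39a14 and Tgm2, the latter named after its value was seen. Slc39a14 had no entry in the promoter table.

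None of the other zinc importer genes of the Slc39 family past the filter was 2-fold higher. Of 13 genes, 10 passed it, 3 were above 0 and 1 was at least 2-fold lower. All genes gave 10.4% higher and 12.4% lower by 2-fold or more. The lower one was Slc39a8 (-1.05), the closest relative of Slc39a14, with signals of 822.6 and 358.7 and a second probe set at -0.70. The lower count was 2 with a pseudocount of 1 or with the arrays centred on 10 reference (housekeeping) genes. It was 0 with the arrays centred on hybridization controls (RNA spikes of the array maker). It was also 0 with the mean of all probe sets of a gene or with a pseudocount of 228.7. Slc39a5, with signals of 265.7 and 103.9, passed the filter only through the sham array and was at -0.94. Slc39a1 was at 0.59 and Slc39a3 at -0.51. The median over the 10 was -0.38.

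The zinc and manganese exporter genes differed by less than 2-fold at their main probe sets. Differences at least as high were reached by 15.2% of all genes for Slc30a10 and by 20.1% for Slc30a1. Slc30a10, the manganese exporter, was at 622.1 (sham) and 1104 (AKI) (0.76), and its second probe set at 324 and 432.7 (0.35). Slc30a1, the plasma membrane zinc exporter and a known MTF1 target, was at 614.4 and 965.1 (0.60), but its second probe set, which passed the filter only through the sham array, was at 903.7 and 159.3 (-2.08). The 2 probe sets of Slc30a1 therefore went opposite ways, and a gap of 2.67 or more was present in 51 of 3188 genes with 2 probe sets past the filter. No direction is given for Slc30a1.

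The promoter of Slc30a1 is shown for comparison with the metallothionein promoters, since it is a target of the same factor but had no agreed difference. The 250 bases before its listed start are chr1:191906531-191906780, plus strand, RefSeq build GRCm38.p6, with the metal response element core in capitals.
Slc30a1, before the start: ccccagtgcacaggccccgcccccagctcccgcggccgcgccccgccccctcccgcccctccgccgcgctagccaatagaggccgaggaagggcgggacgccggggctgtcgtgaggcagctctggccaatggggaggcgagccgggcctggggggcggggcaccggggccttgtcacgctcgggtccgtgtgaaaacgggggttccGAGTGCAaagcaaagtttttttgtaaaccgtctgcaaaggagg
Its window held 2 matches, at -43 and 31, and that of Slc30a10 also held 2, at -233 and -73. At least 2 were present in 6.14% of windows. RefSeq's gene entry of the same assembly begins Slc30a1 upstream of the start used here. The positions in Slc30a1 and its run before the start therefore hold for the start used here only.

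Of the other Slc30 exporter genes 7 of 8 passed the filter, with a median of 0.62. At least 2-fold higher were 2, Slc30a5 (1.29) and Slc30a4 (1.06), which load zinc into intracellular compartments. Slc30a2 (-1.68) was lower, from a weak signal of 234.2 to 23.6. It passed the filter only through the sham array, so it had to be lower. All genes gave 10.4% higher and 12.4% lower by 2-fold or more. Slc30a6 was at -0.65. None of the other genes known as MTF1 targets past the filter was higher. Whether MTF1 had a part in any of these values was not tested. Of 5, 4 passed the filter, 0 were above 0 and 2 were at least 2-fold lower, against 12.4% of all genes. These were the iron exporter gene Slc40a1 (-2.72) and the glutathione synthesis gene Gclc (-1.49). Selenoh and Selenow were at -0.63 and -0.41. Slc39a10, a zinc importer gene that MTF1 is known to repress, was below the filter at 86.7 and 221.9.

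Steap4 had the largest difference of the 10 genes. It encodes a metalloreductase that reduces iron and copper before uptake and is known to be induced by inflammatory cytokines. Its main probe set was at 1486 (sham) and 29136 (AKI), 19.6 times as high, a difference of 4.23. Its other probe set was at 930 and 11298 (3.50). Both carry the suffix _a_at, given to probe sets that match several transcripts of 1 gene. Only 24 of 13128 genes had a difference as large. The 4 genes with the nearest differences over the 2 arrays were Klf6 (4.22), Hilpda (4.25), Gadd45a (4.25) and Tiparp (4.19), with gaps of 0.01 to 0.03 on the log2 scale. Of the 5149 genes with several probe sets past the filter, 12 had all of them at least 8-fold higher, with Steap4 and Mt1 among them. Steap4 is also expressed in macrophages and neutrophils. The marker values given above had a lower sum for macrophages and a higher one for neutrophils in the AKI pool. Not all markers of either type went with the sum, as Marco and Cd68 were higher and Mpo was not. The part of these cells in the result was not tested.

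The promoter of Steap4 is shown because it was the only promoter window of the genes with an entry, 8 of the 10, to hold a match to the STAT core TTCNNNGAA, which reads the same on both strands. The 250 bases before its listed start are chr5:7960222-7960471, plus strand, RefSeq build GRCm38.p6, with the match in capitals.
Steap4, before the start: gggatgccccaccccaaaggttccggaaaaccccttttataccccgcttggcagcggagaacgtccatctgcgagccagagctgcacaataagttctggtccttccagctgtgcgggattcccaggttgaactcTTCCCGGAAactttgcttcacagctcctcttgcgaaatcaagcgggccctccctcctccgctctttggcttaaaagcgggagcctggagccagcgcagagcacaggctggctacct
The match begins at -116, and 8.30% of all windows hold at least 1. The window held 0 metal response element cores.

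The other STEAP and ferroxidase genes were weakly expressed. Of 5, 4 passed the filter, and 1 was at least 2-fold higher, against 10.4% of all genes. It was Steap1 (1.29), with signals of 304.6 and 849.4. Steap2 was at 0.86 but its other probe set at -1.64. Steap3, the endosomal ferrireductase, was at 0.00. Hephl1 was at 0.61, with signals of 222.4 and 377.8, and passed the filter only through the AKI array, so it had to be higher.

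Cp had an outlying probe set. Its main probe set was at 53723 (sham) and 51602 (AKI) (-0.06), and 2 others were near 0, at 25042 and 23944 (-0.06) and at 23513 and 24048 (0.03). A further 2 were slightly higher, at 8792 and 10006 (0.19) and at 5610 and 8471 (0.59). The sixth was at 267.3 and 4506, 16.9 times as high, a difference of 3.75. The remaining 2 were below the filter, with differences of 0.43 and 0.62. The 6 probe sets past the filter thus spanned 3.82, a spread reached by no other of the 66 genes with 6 such probe sets. Which transcripts the sixth probe set detects was not analysed here. Cp has 2 promoter windows in the table, and neither held a match to either motif.

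Of 13 copper handling genes, all past the filter, 11 were below 0, 2 were at least 2-fold lower and 0 at least 2-fold higher, with a median of -0.42. The median was -0.09 with the mean of all probe sets and -0.12 with centring on hybridization controls, and the lower count was 1 with that centring or a pseudocount of 228.7. With centring on reference genes the median was -0.71 and the lower count 3. Without probe sets of the suffix _s_at, _x_at or _a_at the lower count was 3 of 11 genes. All genes gave 12.4% lower. Ccs, the copper chaperone of superoxide dismutase, was at 10911 and 2861 (-1.90), and the copper importer gene Slc31a1 at 2396 and 1113 (-1.06), with another probe set at -1.60. Commd1 was at -0.72 and Slc31a2 at -0.58.

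**Figure D3:**
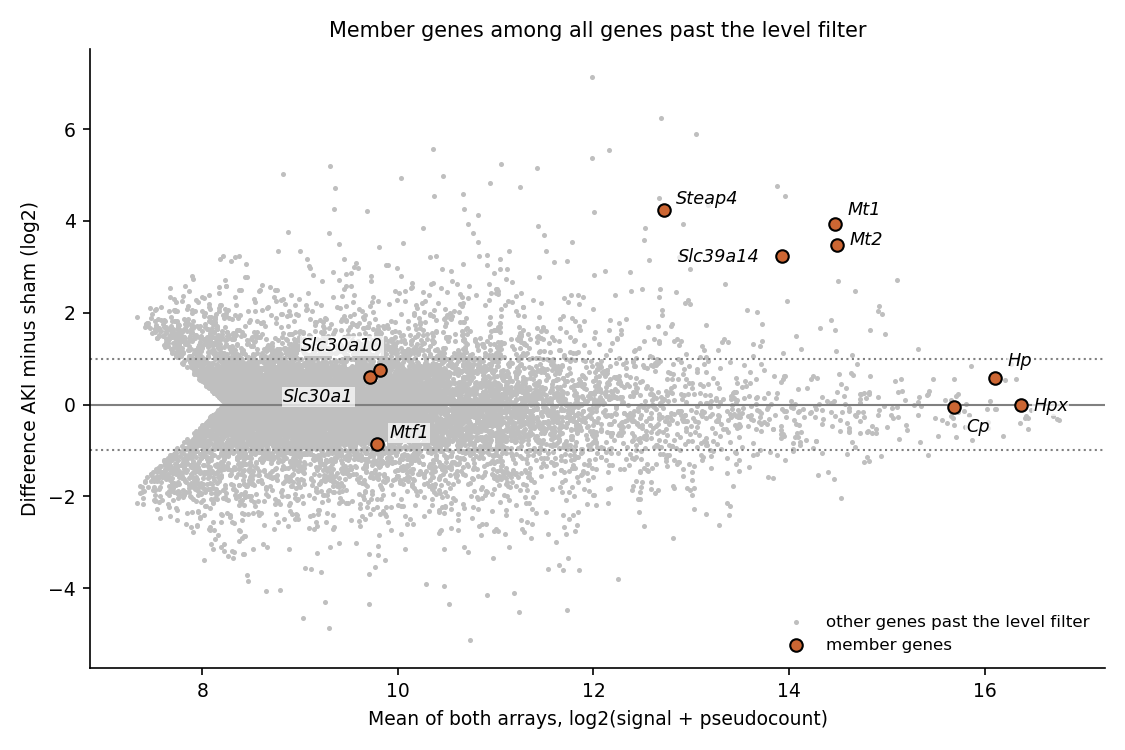
Difference AKI minus sham (log2) against the mean of both arrays on the log2(signal + pseudocount) scale for 13128 genes past the level filter (grey), with the 10 member genes outlined in orange. Mt1, Mt2, Slc39a14 and Steap4 stand at 3.24 to 4.23. At the bright end of the arrays Hpx and Cp lie near 0 and Hp at 0.57.

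The scavenger genes Hp and Hpx were bright in both pools. Hp was at 57794 (sham) and 86049 (AKI), 1.49 times as high, a difference of 0.57 that 20.8% of all genes reached. Hpx was at 84666 and 84223 (-0.01). Each has 1 probe set, so neither value can be checked against another. Both lie near the top of the signal range, which ended at 127787 for sham and 106903 for AKI. On the AKI array 11 of 45101 probe sets were brighter than that of Hp and 13 brighter than that of Hpx. Among 39 genes with a mean signal of at least 50000, 1 was higher by 2-fold or more, or 2.56%, and 0 were lower by as much, or 0.0%. A cut on the mean leaves out genes bright on 1 array only, Mt1 and Mt2 among them, so it favours genes that differ little. With a mean of at least 20000 the largest difference was 7.13, of Pdk4. The AKI signals of Mt1 and Mt2 also lie near the top of the signal range, with 9 and 24 probe sets brighter. Whether signals this bright were held down by the range of the scanner was not tested, for Hp and Hpx or for the folds of Mt1 and Mt2. The erythroid marker genes Alas2, Slc4a1 and Hba-a1 were at 0.19, 0.07 and -0.18, the last below the filter.

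Genes of heme and haemoglobin clearance went both ways. Of 11, all past the filter, 1 was 2-fold or more higher and 2 as much lower, with a median of -0.07. All genes gave 10.4% and 12.4%, so counts this small do not set the list apart. Hmox1, the inducible heme oxygenase, was at 619.7 and 1934 (1.54), Blvrb, a biliverdin reductase, at 3894 and 1338 (-1.49) and Flvcr2 at 330.8 and 106.1 (-1.18). Flvcr2 passed the filter only through the sham array, so it had to be lower. Slc48a1, a heme transporter gene of lysosomes, was at 0.92 with another probe set at -0.79. The receptor genes were chosen for naming after their values were seen. Lrp1, whose protein takes up hemopexin with heme, was at -0.73 with another probe set at 0.07, and Cd163, whose protein takes up haptoglobin with haemoglobin, at 0.23.

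Among genes known to regulate the 10, 11 of 12 were found and passed the filter. Of these, 4 were 2-fold or more higher and 0 as much lower, with a median of 0.84. All genes gave 10.4% higher and 12.4% lower. With the arrays centred on 10 reference (housekeeping) genes 3 of the 11 were higher and 4 lower. Socs3 (4.75), the feedback inhibitor of cytokine signalling, Stat3 (2.53), Cebpd (2.33) and the receptor subunit gene Il6st (1.05) were the 4. Other probe sets of Stat3 and Cebpd reached down to -0.08 and 0.58, and the probe sets of Il6st ran from 0.42 to 1.45. Below 0 were Cebpa (-0.93), Hnf4a (-0.83), the glucocorticoid receptor gene Nr3c1 (-0.81) and the interleukin-6 receptor gene Il6ra (-0.72), named after their values were seen. Of 17 acute phase genes outside the 10, 16 were found. Of these, 8 were 2-fold or more higher and 0 as much lower, against the same 10.4% and 12.4%, with a median of 1.13. Without probe sets of the suffix _s_at, _x_at or _a_at the higher count was 5 of 12 genes and the median 0.71. The count was 9 with the mean of all probe sets, and 10 with lowess centring or centring on hybridization controls. Saa2, Lcn2, Saa1 and Serpina3n led, at 6.24, 5.89, 4.55 and 2.70. The fibrinogen genes in this list, plasma proteins like Hp and Hpx and named after their values were seen, were at 0.53 for Fga, 0.88 for Fgb and 0.55 for Fgg.

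**Figure D4:**
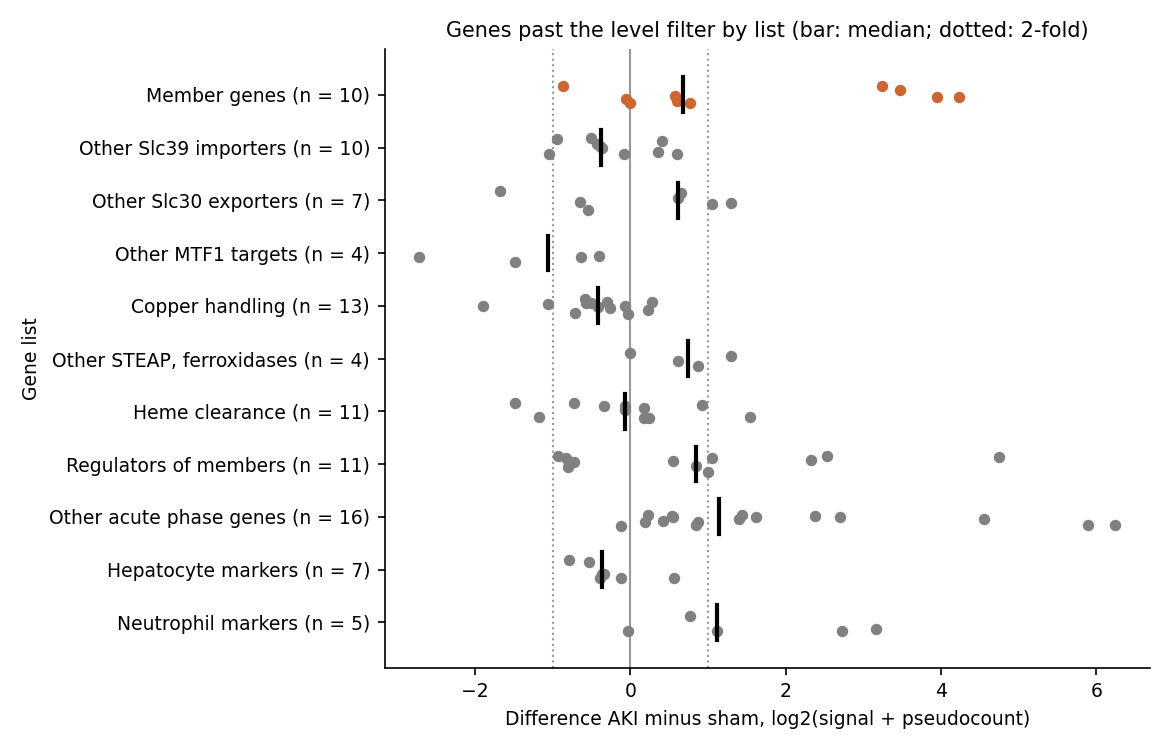
Difference AKI minus sham on the log2(signal + pseudocount) scale of each gene past the level filter, by list, with n genes per list, black bars at the median and dotted lines at 2-fold. Points are genes, not replicates. The 10 member genes fall into 4 at 3.24 or above and 6 between -0.87 and 0.76.

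Sorted by difference, the 10 genes ran Steap4, Mt1, Mt2, Slc39a14, Slc30a10, Slc30a1, Hp, Hpx, Cp and Mtf1. Neighbours in this order differed by less than the SD between probe sets of a gene (0.66 or 0.69 at these levels) except at 2 places. The gap between Slc39a14 and Slc30a10 was 2.48, and that between Cp and Mtf1 was 0.81. The latter was smaller than the SDs between these genes' own probe sets, 1.5 for Cp and 0.93 for Mtf1, and so does not settle their order. The scale of the arrays bears on all of these values. With the arrays centred on 18 hybridization controls every difference was 0.30 higher, and with centring on 10 reference genes 0.29 lower, so that the median of all genes was 0.28 or -0.31. Genes past 2-fold were 45.6% higher ones with the authors' scaling, 67.5% with hybridization controls and 25.9% with reference genes. Mt1, Mt2, Slc39a14 and Steap4 stayed between 2.94 and 4.53 under the alternatives that gave them a value. The signs of Hpx and Cp turned with the centring, as did that of the heme clearance median, at 0.23 with hybridization controls, and no other list median given here changed sign under these 2 centrings.

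**Figure D5:**
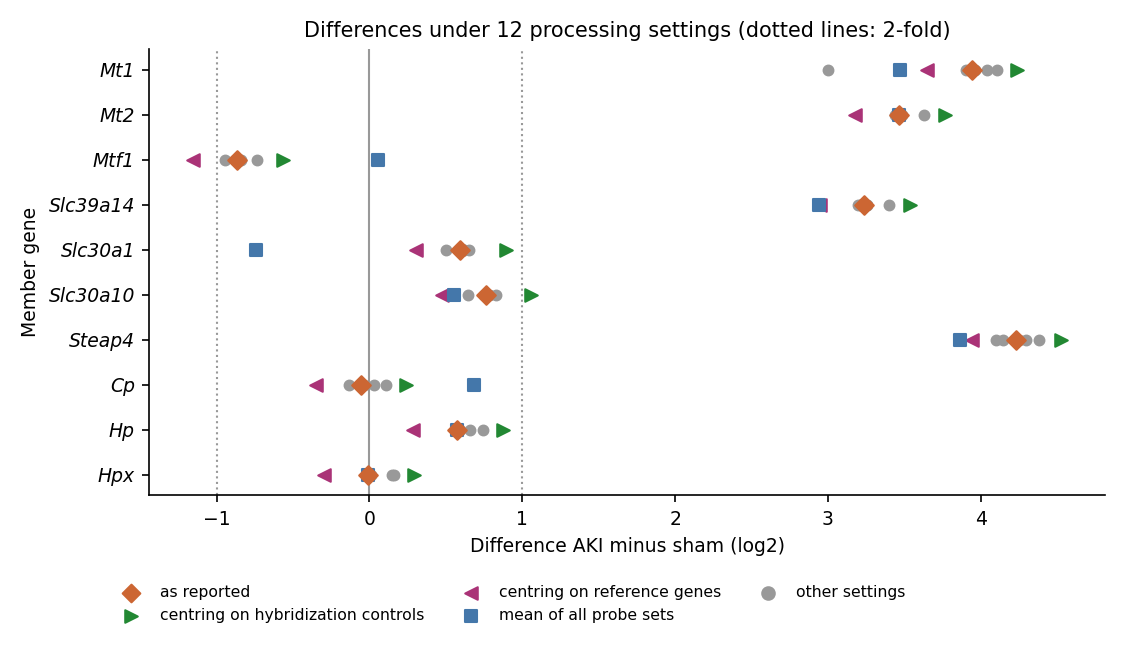
Difference AKI minus sham (log2) of each member gene under 12 processing settings. Diamonds are the values as reported, right and left triangles the centring on hybridization controls and on reference genes, squares the mean of all probe sets of a gene and grey points the other settings. Mt1, Mt2, Slc39a14 and Steap4 lie at 2.94 or above in all settings shown, and the mean of all probe sets moves Mtf1, Slc30a1 and Cp most.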

How the data were processed

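Biotinylated cRNA from 8 ug of total RNA, extracted with Trizol from pooled frozen liver, was hybridised to 1 array per group, per the labels. The authors deposited linear signal intensity values, 1 per probe set and array. The summary software and genome build are not given in the sources used here. Both arrays had a mean signal of 500.0 once the outer 2% of values at either end were left out, so the authors had scaled them to a common target, which removes any difference in total mRNA. Of 45037 non-control probe sets, 34945 have 1 gene symbol in the platform annotation, 932 several and 9160 none. Symbols were compared with RefSeq (GRCm38.p6) through Entrez numbers, and 0 were altered.

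Values were taken as log2(signal + 71.8). Each gene's brightest probe set by mean log2 value stood for it, and the gene was counted if this probe set reached the array median without controls (225.7 for sham, 231.8 for AKI) on either array. The SD between probe sets of a gene holds measurement error and any difference between the transcripts they detect, and leaves out the animals. The number of arrays limits the precision. The genes and lists were chosen with earlier results of these data known. Of each list, up to 4 genes with the largest absolute difference were named, or all genes behind a count of up to 5, and 4 genes nearest in difference to the member with the largest. Alternatives changed the scaling, level filter, gene summary, pseudocount or probe sets. The computation was tested on simulated data. Python 3.11.15, numpy 2.4.6, pandas 2.3.3, statsmodels 0.14.6 and matplotlib 3.10.9 were used.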

Additional observations from a re-analysis of the deposited data

How the results depend on the processing

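The count of 4 genes at least 2-fold higher was 5 with centring on hybridization controls, where Slc30a10 reached 1.06, and 3 of 9 without probe sets of the suffix _s_at, _x_at or _a_at, a setting that gives Steap4 no value and Mt1 a difference of 3.00. The count of genes at least 2-fold lower was 0 except with centring on reference genes, where it was 1, as Mtf1 was at -1.15. The median of the 10 genes was 0.98 with hybridization controls and 0.39 with reference genes, which follows from the common shift. The other alternatives (median, quantile and lowess centring, no or a stricter level filter, the mean of all probe sets, pseudocounts of 1 and 228.7) left the count at 4. The mean of all probe sets put Mtf1 at 0.06, Slc30a1 at -0.74 and Cp at 0.69. With the larger pseudocount 841 genes were at least 2-fold higher and 1063 lower, against 1370 and 1634. The counts of 1 or 2 genes past 2-fold among the other Slc30, STEAP and ferroxidase, and heme clearance genes each changed by 1 under at least 1 alternative. No paired analysis was possible because each group is 1 array. With 1 pool per group, variation between mice is unknown.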
